A study of Homo sapiens with 6 samples.

Results

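Mucins are large glycoproteins that carry dense O-linked sugars and line the apical surface of ductal epithelia. The membrane mucins MUC1, MUC4, MUC13, MUC16 and MUC20 are anchored in the cell membrane and can engage signalling partners through their intracellular or juxtamembrane parts, whereas the secreted mucins MUC5AC and MUC5B polymerise into gels after release. Normal pancreatic ducts are known for low levels of several of these genes, and MUC1, MUC4 and MUC5AC are commonly described as raised in ductal pancreatic cancer. These 7 genes were selected by gene symbol from the 26255 symbols in the expression files, and each symbol had a row in every library.

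RNA came from BxPC-3 cells, a long-established human line derived from a pancreatic adenocarcinoma, with 3 groups and 2 libraries in each. The parent cells received no treatment, the NC-1 cells received a negative control RNA, and the miR-4711-5p cells received the microRNA hsa-miR-4711-5p. Expression was measured at 36 h. All groups are the same cell line, which is a single culture model without stroma or normal duct cells. Nothing in the labels states that the libraries of a group came from separate cultures, so the p-values below measure the spread between these libraries, which may be technical. The comparisons ask whether mucin transcripts differed after miR-4711-5p from untreated cells and from cells that received a control RNA, and whether the control RNA itself was accompanied by a difference.

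The microRNA is shown because its seed, the part that pairs with target transcripts, defines the sites searched in the mucin transcripts. The mature sequence, credited to RefSeq, is printed with bases 2 to 8, the seed, in capitals.
hsa-miR-4711-5p: uGCAUCAGgccagaagacaugag

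The matching sites in a transcript are CTGATGC (pairing with bases 2 to 8), the variant TGATGCA (shifted by 1 base) and the longer CTGATGCA, which holds both. None of these letters were found in an annotated 3′ UTR of any coding transcript of the 7 mucins on GRCh37, where 15.8% of the 19070 canonical 3′ UTRs held at least 1. MUC5AC could be searched in part only, because 50000 bases within the gene are undetermined on this build (chr11:1162760-1212759) and its transcript models are incomplete. The canonical coding sequences of the other 6 mucins each held at least 1 match, 14 in all, and 21.9% of 19553 canonical coding sequences did so. Set against length, the matches came to 0.123 per kb of coding sequence in MUC4, 0.138 in MUC16 and 0.0578 in MUC5B, beside 0.167 over all genes. The shorter coding sequences had 0.70 per kb in MUC1, 0.939 in MUC20 and 1.30 in MUC13, which rest on 1, 2 and 2 matches.

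The matches in the mucins whose levels are described most closely below are shown with their surroundings on the transcript strand, 5′ to 3′, with the match in capitals. They are reference sequence, all within coding exons, and a match is a description and not evidence of binding. A match was present in 1 of 18 annotated coding transcripts of MUC1, 2 of 4 of MUC4, 1 of 2 of MUC13 and 4 of 4 of MUC20.
MUC1 at chr1:155160826-155160832, minus strand: tagcaccaagaCTGATGCcagtagcactc
MUC4 at chr3:195514978-195514984, minus strand: tcttcatgtcaCTGATGCttcctcagcat
MUC4 at chr3:195514354-195514360, minus strand: tcttcatgtcaCTGATGCttcctcagcat
MUC13 at chr3:124646810-124646816, minus strand: aggcaactcagCTGATGCtgtaacaacca
MUC13 at chr3:124632063-124632069, minus strand: tctcaagtgtcCTGATGCctgcaacgcac
MUC20 at chr3:195452949-195452955, plus strand: gtcagctgcacCTGATGCcacggttggga
MUC20 at chr3:195456599-195456606, plus strand: tggcagaaaggCTGATGCAgcagctccacc

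The surroundings of both MUC4 matches have the same letters, at positions 3467 and 4091 of a coding sequence of 16239 bases. The letters CTGATGC were thus present in MUC1, MUC4, MUC13 and MUC20, and the second MUC20 match was the longer CTGATGCA. The part of these matches in the levels described below was not tested.

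The promoters of MUC1, MUC4 and MUC13 are shown because these 3 genes moved after miR-4711-5p. Each runs from 250 bases before to 50 bases after the transcription start in RefSeq on GRCh38.p14, on the gene's strand. The capitals mark matches on either strand to the TATA-type box TATAA, the GC box with letters GGGCGG, the CACCC box named for its letters, the AP-1 motif with letters TGANTCA and the STAT motif with letters TTCNNNGAA. These were found in 20.4%, 45.0%, 59.9%, 7.71% and 7.66% of 35116 promoters of the same length.
MUC1 promoter, chr1:155192866-155193165, minus strand: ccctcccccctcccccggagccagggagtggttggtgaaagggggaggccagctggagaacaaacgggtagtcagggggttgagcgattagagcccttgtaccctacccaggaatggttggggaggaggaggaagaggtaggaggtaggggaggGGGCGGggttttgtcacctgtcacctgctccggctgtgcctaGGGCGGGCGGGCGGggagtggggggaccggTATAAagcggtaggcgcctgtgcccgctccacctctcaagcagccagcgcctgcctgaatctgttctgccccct
MUC4 promoter, chr3:195811880-195812179, minus strand: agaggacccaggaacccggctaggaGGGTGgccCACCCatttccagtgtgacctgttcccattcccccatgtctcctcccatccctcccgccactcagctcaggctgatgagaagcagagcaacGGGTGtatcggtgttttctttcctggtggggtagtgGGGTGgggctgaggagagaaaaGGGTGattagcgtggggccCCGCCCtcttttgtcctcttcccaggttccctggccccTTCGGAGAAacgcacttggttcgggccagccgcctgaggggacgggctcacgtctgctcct
MUC13 promoter, chr3:124934702-124935001, minus strand: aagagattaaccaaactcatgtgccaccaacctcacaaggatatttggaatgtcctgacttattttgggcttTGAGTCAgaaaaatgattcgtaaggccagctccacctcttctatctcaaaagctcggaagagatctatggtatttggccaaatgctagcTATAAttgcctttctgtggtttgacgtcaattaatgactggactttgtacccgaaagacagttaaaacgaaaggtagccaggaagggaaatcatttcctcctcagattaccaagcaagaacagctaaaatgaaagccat

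The MUC1 promoter held 4 GC box matches, 3 of which overlap each other, and a TATA box match that begins 24 bases before the start. The MUC4 promoter held 5 CACCC matches, 1 GC box match and 1 STAT match. The MUC13 promoter held an AP-1 match 178 bases before the start and a TATA box match 89 bases before it, and no GC box or CACCC match. MUC1 and MUC4 had a GC content of 65.7% and 62.0% in this window, against 41.0% in MUC13. MUC16, which is not among these 3 genes, also had a promoter listed. Its first entry had a GC content of 62.0%, 1 GC box match and 1 CACCC match. No promoter was listed for MUC5AC, MUC5B or MUC20.

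Expression is given as FPKM, a read count scaled by transcript length and by a size factor for each library. This corrects for gene length and allows levels of different genes to be set side by side where transcript models are complete and reads unique. The sums of FPKM over all genes ran from 493145 to 550772 and were lowest in the miR-4711-5p libraries. The median ratio of a library to the geometric mean of all libraries was 1.006 to 1.007 throughout. The deposited values were thus already level on this median ratio and not in their totals, and rescaling to equal totals, used below, undoes that level. The number of reads is unknown. Steps between values under 0.1 FPKM gave relative size factors from 0.751 to 1.21 of the first parent library, highest in both miR-4711-5p libraries. Such factors need not equal the relative number of reads, since the totals differed. KLF5 and TFDP1, described targets of this microRNA and here a check of the labels, were at 59.2 to 66.8 FPKM and 19.9 to 20.6 FPKM in the miR-4711-5p libraries, below the control ranges of 114 to 124 FPKM and 38.7 to 48.6 FPKM. All 7 epithelial markers (EPCAM, KRT7, KRT8, KRT18, KRT19, CLDN4 and CLDN7) were at 1 FPKM or more on average, with sums from 5380 to 6369 FPKM. Of the markers of other cells, none of 6 leukocyte genes reached a mean of 1 FPKM, and 1 of 6 fibroblast genes (COL1A1, up to 2.35 FPKM), 1 of 4 endothelial genes (CDH5, up to 3.16 FPKM) and 1 of 6 acinar genes (PRSS1, up to 5.10 FPKM) did.

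MUC1 and MUC4 were the most abundant of the 7 mucins, with means over the 6 libraries of 23.3 and 18.0 FPKM. MUC20 followed at 6.95 FPKM, MUC13 at 1.08 FPKM, MUC5AC at 0.714 FPKM, MUC16 at 0.547 FPKM and MUC5B at 0.0647 FPKM. MUC1 and MUC4 together made up 75.2% to 86.3% of the summed mucin FPKM of a library. The places of MUC5AC, with 50000 undetermined bases in its gene, and of MUC20, with much of its transcript shared with other genes, are uncertain. The order of MUC1 and MUC4 depends on the transcript lengths used in the scaling. In MUC4, 18.0% of the 75-base windows of the canonical transcript occur in it more than once. The order did not hold in every library. MUC1 and MUC4 could not be separated in the miR-4711-5p group. MUC13 ranked above MUC5AC through the miR-4711-5p libraries. MUC5AC was higher than MUC13 in the second parent library (0.685 and 0.463 FPKM) and the first NC-1 library (0.908 and 0.659 FPKM), nearly level with it in the first parent library (0.609 and 0.607 FPKM) and lower in the second NC-1 library (0.869 and 0.944 FPKM). MUC16 was below MUC5AC except in the first miR-4711-5p library, where it was at 0.538 FPKM and MUC5AC at 0.497 FPKM. The secreted mucins MUC5AC and MUC5B added up to between 0.538 and 0.976 FPKM per library.

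**Figure D1:**
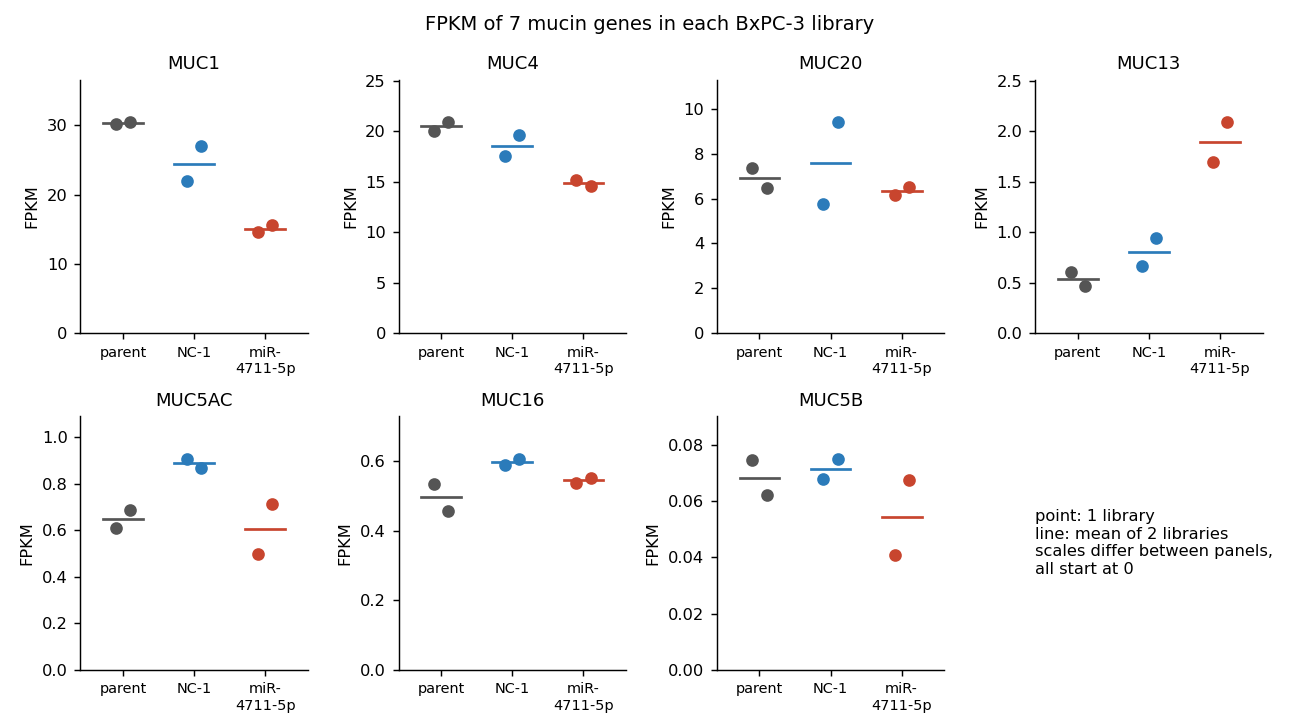
FPKM of the 7 mucins in the 2 parent, 2 NC-1 and 2 miR-4711-5p libraries. Each point is 1 library, each line is the mean of a group, and every axis starts at 0 with its own scale. MUC1 and MUC4 are lowest and MUC13 is highest in both miR-4711-5p libraries, while the miR-4711-5p libraries lie within the range of the controls for MUC16 and overlap that range for MUC20, MUC5AC and MUC5B.

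A mean of at least 1 FPKM was required for testing, which 12040 genes passed, among them MUC1, MUC4, MUC13 and MUC20. MUC13 passed through its level after miR-4711-5p, since every control library was under 1 FPKM. Log2(FPKM + 1) was compared with limma, which moderates the variance of each gene toward that of genes of like level, with Benjamini-Hochberg adjustment over all genes tested. On this scale the change of a gene near or below 1 FPKM comes out too small, so the ratio of mean FPKM is given beside them. Against parent, limma called MUC1 and MUC4 lower and MUC13 higher after miR-4711-5p, and did not call MUC20. In the same comparison 43.4% of all genes tested were called, 18.7% higher and 24.7% lower. The same 3 mucins were called in the same direction against NC-1, where 39.6% of all genes were called, 18.4% higher and 21.2% lower. Of the calls against parent, 43.1% were higher, and 69.3% were when the libraries were rescaled to equal total FPKM, which moved the median of all genes by 0.11 on the log2 scale. Under that rescaling MUC1 (-0.83), MUC4 (-0.30) and MUC13 (0.98) were still called against parent. With so large a share of genes called, 3 of 4 mucins is not set apart from the background.

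MUC1 is a membrane mucin of most glandular epithelia whose short cytoplasmic tail can be phosphorylated and can bind beta-catenin. MUC1 lies on chromosome 1 (chr1:155158300-155162707, minus strand, GRCh37). It was at 30.2 and 30.5 FPKM in the parent libraries, at 21.9 and 27.0 FPKM in the NC-1 libraries and at 14.6 and 15.6 FPKM in the miR-4711-5p libraries. Both miR-4711-5p libraries lay below every control library, and both NC-1 libraries lay below both parent libraries. The group means were 30.4 ± 0.235, 24.4 ± 3.65 and 15.1 ± 0.698 FPKM (SD, n = 2 each). The mean after miR-4711-5p was 0.497 of the parent mean, with a limma log2 difference of -0.96 (SE 0.09, 95% interval -1.18 to -0.74, adjusted p = 0.000251). Against NC-1 the ratio was 0.617 and the log2 difference -0.65 (limma, adjusted p = 0.00163). Of the epithelial markers, KRT19 moved with MUC1, from 1559 to 1700 FPKM in parent and 1254 to 1294 FPKM in NC-1 to 890 and 912 FPKM in miR-4711-5p (log2 difference -0.85 against parent, limma adjusted p = 2.58e-05). CLDN4 (0.72) and KRT18 (0.19) were called higher than parent and the other 4 were not called. Against NC-1, CLDN4 (0.45), KRT18 (0.33), KRT8 (0.25) and EPCAM (0.24) were called higher. KRT19 (-0.50) and KRT7 (-0.17) were called lower and CLDN7 was not called, beside 18.4% higher and 21.2% lower among all genes. The part of these markers in the MUC1 result was not tested. Of all genes tested, 26.3% had both miR-4711-5p libraries below all controls and 23.8% had both above.

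MUC1 was also the mucin called between the control groups. The NC-1 mean was 0.805 of the parent mean, with a log2 difference of -0.31 (limma, adjusted p = 0.0469), in a comparison in which 27.2% of genes were called. This call was lost under 11 of 16 alternative settings, and without the first NC-1 library the difference was -0.16 (limma, adjusted p = 0.152). In terms of its place among genes, MUC1 lay at percentiles 88.3 and 88.6 of all 26255 symbols in the parent libraries and at 79.9 and 80.9 in the miR-4711-5p libraries.

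MUC4, which can associate with the receptor ERBB2 and is known for its large tandem repeat region, showed a smaller fall. It was at 20.0 and 20.9 FPKM in the parent libraries, 17.5 and 19.6 FPKM in the NC-1 libraries and 15.2 and 14.6 FPKM in the miR-4711-5p libraries. Again both miR-4711-5p libraries lay below every control library. The group means were 20.5 ± 0.67, 18.6 ± 1.44 and 14.9 ± 0.434 FPKM (SD, n = 2 each). The ratio to parent was 0.729, with a log2 difference of -0.43 (SE 0.07, 95% interval -0.59 to -0.28, limma adjusted p = 0.00197). The ratio to NC-1 was 0.804, with a log2 difference of -0.30 (limma, adjusted p = 0.0109). The call against NC-1 was lost without the second NC-1 library (log2 difference -0.22, limma adjusted p = 0.0575) or without the second miR-4711-5p library (-0.27, limma adjusted p = 0.0769). NC-1 and parent differed by -0.14, which limma did not call (adjusted p = 0.168).

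MUC13, a membrane mucin of the gastrointestinal epithelium with EGF-like domains, was low in control cells and higher after miR-4711-5p. It was at 0.607 and 0.463 FPKM in the parent libraries, 0.659 and 0.944 FPKM in the NC-1 libraries and 1.69 and 2.09 FPKM in the miR-4711-5p libraries. Both miR-4711-5p libraries lay above every control library. The group means were 0.535 ± 0.102, 0.801 ± 0.202 and 1.89 ± 0.278 FPKM (SD, n = 2 each). The mean after miR-4711-5p was 3.53 times the parent mean and 2.36 times the NC-1 mean. The log2 difference was 0.91 against parent (SE 0.15, 95% interval 0.56 to 1.26, limma adjusted p = 0.00252) and 0.68 against NC-1 (limma, adjusted p = 0.00945). With a filter at 0.1 FPKM, which every MUC13 library passed on its own, limma gave adjusted p = 0.00191 against parent and 0.0067 against NC-1. The call against NC-1 was lost without the second miR-4711-5p library (0.58, limma adjusted p = 0.0651). With a pseudocount of 0.1 in place of 1 the log2 differences were 1.65 and 1.15. The relative size factor was also highest in both miR-4711-5p libraries, and its part in this result was not tested. The acinar marker PRSS1 moved in the same direction, at 0.684 and 1.57 FPKM in parent, 2.73 and 2.62 FPKM in NC-1 and 3.18 and 5.10 FPKM in miR-4711-5p (log2 differences from parent and NC-1 of 1.28 and 0.46, limma adjusted p = 0.00427 and 0.16). Of the 6 acinar markers, CPB1, CELA3A, AMY2A and PNLIP were listed at 0 in every library and CPA1 in all but 1, and the part of these markers in the MUC13 result was not tested.

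MUC20, which is known to bind the receptor MET, differed more within the NC-1 group than between groups. It was at 7.37 and 6.49 FPKM in the parent libraries, 5.76 and 9.42 FPKM in the NC-1 libraries and 6.14 and 6.53 FPKM in the miR-4711-5p libraries. The NC-1 libraries were the lowest and the highest of all 6. The log2 difference was -0.11 against parent (95% interval -0.54 to 0.32, limma adjusted p = 0.648) and -0.20 against NC-1 (-0.62 to 0.23, limma adjusted p = 0.425). These intervals are too wide to say that MUC20 did not differ. The value against NC-1 rested on single libraries, since it was 0.12 without the second NC-1 library and -0.51 without the first (limma, adjusted p = 0.0171).

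**Figure D2:**
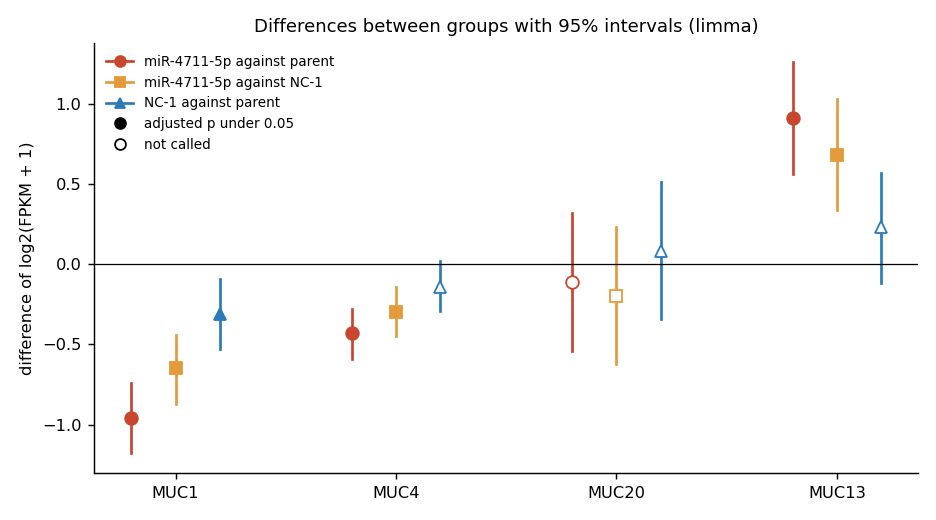
Differences of log2(FPKM + 1) for the 4 mucins tested, with 95% intervals from limma, in the comparisons of miR-4711-5p with parent, of miR-4711-5p with NC-1 and of NC-1 with parent. Filled symbols have an adjusted p under 0.05. MUC1 and MUC4 lie below 0 and MUC13 above 0 in both comparisons with miR-4711-5p, and the intervals of MUC20 span 0 in all 3.

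MUC16, the membrane mucin that carries the CA125 antigen, stayed below 1 FPKM in every library. It was at 0.535 and 0.458 FPKM in the parent libraries, 0.589 and 0.608 FPKM in the NC-1 libraries and 0.538 and 0.553 FPKM in the miR-4711-5p libraries. The miR-4711-5p libraries lay between the parent and NC-1 groups. In the fit with the filter at 0.1 FPKM, where 34.3% of genes were called against parent and 31.4% against NC-1, the log2 difference was 0.05 against parent (95% interval -0.16 to 0.25, limma adjusted p = 0.708) and -0.05 against NC-1 (limma, adjusted p = 0.706). Because the annotated transcript of MUC16 is 43816 bases long, its parent level multiplied by its length in kilobases comes to 21.7 if all its RNA were the canonical transcript, compared with 1.54 for MUC13 at a similar FPKM, so many more reads stand behind the MUC16 value.

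MUC5AC and MUC5B, gel-forming mucins best known from the stomach surface and the airways, were also low. The MUC5AC level is uncertain because of the undetermined bases in its gene. MUC5AC was at 0.609 and 0.685 FPKM in the parent libraries, 0.908 and 0.869 FPKM in the NC-1 libraries and 0.497 and 0.713 FPKM in the miR-4711-5p libraries. Both miR-4711-5p libraries were below both NC-1 libraries and overlapped the parent libraries. In the fit with the filter at 0.1 FPKM the log2 difference was -0.24 against NC-1 (95% interval -0.48 to 0.00, limma adjusted p = 0.118), -0.04 against parent (limma, adjusted p = 0.793) and 0.20 between NC-1 and parent (limma, adjusted p = 0.214). MUC5B was at 0.0747 and 0.0622 FPKM in the parent libraries, 0.0678 and 0.0752 FPKM in the NC-1 libraries and 0.041 and 0.0675 FPKM in the miR-4711-5p libraries. The MUC5B groups overlapped, and without a filter limma gave a log2 difference of -0.02 against parent (adjusted p = 0.695) and against NC-1 (adjusted p = 0.633). The MUC5B means after miR-4711-5p were 0.793 of parent and 0.759 of NC-1, and at such low values log2(FPKM + 1) shows little of a ratio.

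Ratios between mucins within a library do not depend on how the libraries were scaled. The ratio of MUC1 to MUC4 was 1.51 and 1.46 in the parent libraries, 1.25 and 1.38 in the NC-1 libraries and 0.958 and 1.07 in the miR-4711-5p libraries. Thus MUC1 exceeded MUC4 in FPKM in all 4 control libraries, and the levels were near equal after miR-4711-5p. Whether this ratio lies above or below 1 depends on the transcript lengths used in the scaling. The ratio of MUC1 to MUC13 was 49.7 and 65.9 in the parent libraries, 33.2 and 28.6 in the NC-1 libraries and 8.62 and 7.47 in the miR-4711-5p libraries. For both ratios the 3 groups did not overlap, but they reuse the MUC1, MUC4 and MUC13 values above and add no separate support. How often ratios of other gene pairs separate the groups was not computed. The ratio of MUC4 to MUC20, from 2.08 to 3.22, overlapped between groups. The summed FPKM of the 7 mucins was 59.4 and 59.6 in the parent libraries, 47.4 and 58.5 in the NC-1 libraries and 38.7 and 40.1 in the miR-4711-5p libraries.

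**Figure D3:**
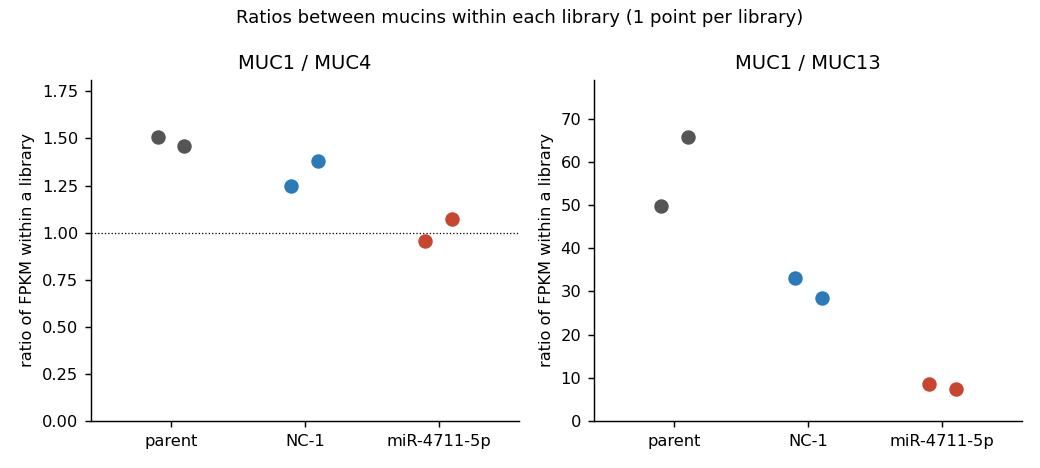
Ratio of MUC1 to MUC4 (left, dotted line at 1) and of MUC1 to MUC13 (right) within each library, from FPKM, with 1 point per library and axes that start at 0. Both ratios are lowest in the 2 miR-4711-5p libraries, at 0.958 and 1.07 on the left and at 8.62 and 7.47 on the right.

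The positions of the genes bear on how far their reads can be told apart. MUC20 (chr3:195447755-195467994, plus strand) and MUC4 (chr3:195473636-195538844, minus strand) are neighbours, 5641 bases apart, and MUC5AC (chr11:1151580-1222364) and MUC5B (chr11:1244296-1283402) are neighbours on the plus strand, 21931 bases apart. MUC13 (chr3:124624289-124672663) and MUC16 (chr19:8959520-9121066) are on the minus strand. MUC20 overlaps the non-coding RNA gene MUC20-OT1 on the same strand, and 71.2% of the 75-base windows of its canonical transcript, the length of the reads, also occur in transcripts of MUC20-OT1 or the pseudogene MUC20P1. The MUC20 values are therefore uncertain. MUC1 overlaps another protein-coding model on its strand, and MUC5B overlaps the antisense gene MUC5B-AS1. Windows that occur more than once within the transcript made up 18.0% of MUC4, 23.8% of MUC5B and 20.7% of MUC20, and 0.434% of MUC16. How reads with several matches were shared out is not given in the sources used here.

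**Figure D4:**
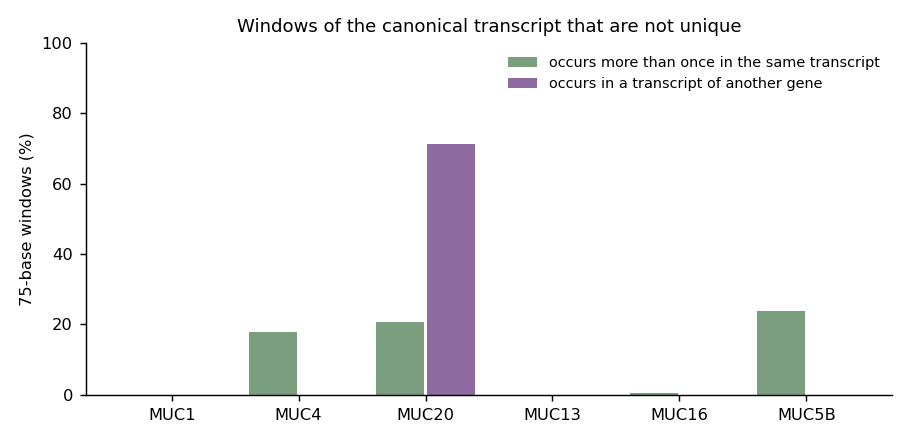
Percent of 75-base windows of the canonical transcript that occur more than once in the same transcript (green) or also occur in a transcript of another gene (purple), for the 6 mucins with a complete transcript model on GRCh37. MUC20 stands out with 71.2% of windows shared with other genes, and MUC4, MUC5B and MUC20 have internal repeats in 18.0%, 23.8% and 20.7% of windows.

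Other mucin genes were mostly low. Of 17 listed, 16 were found in the files and 4 were tested (MUC2, MUCL1, CD164 and MCAM). MUC2, the gel-forming mucin of the intestine, was the member called in the same direction against both control groups. It was at 1.79 and 1.77 FPKM in the parent libraries, 4.94 and 4.74 FPKM in the NC-1 libraries and 1.01 and 1.11 FPKM in the miR-4711-5p libraries. The 3 groups did not overlap, and how many of all genes separate in this way was not counted. Both miR-4711-5p libraries lay below all controls in 26.3% of all genes tested. With miR-4711-5p it was lower than parent by a log2 difference of -0.43 (limma, adjusted p = 0.00823) and lower than NC-1 by -1.51 (limma, adjusted p = 3.49e-05). NC-1 was 2.72 times parent, a log2 difference of 1.07 (limma, adjusted p = 0.000904). MUCL1, a small mucin-like gene, was lower against NC-1 (-0.60, limma adjusted p = 0.0281), but NC-1 was itself higher than parent (0.58, limma adjusted p = 0.0442), and miR-4711-5p and parent differed by -0.02 (limma, adjusted p = 0.928). The endothelial marker CDH5 ran alongside MUC2, at 0.995 and 0.929 FPKM in the parent libraries, 3.16 and 2.88 FPKM in the NC-1 libraries and 0.612 and 0.469 FPKM in the miR-4711-5p libraries. The summed level of the 4 endothelial markers was 1.33 to 1.39 FPKM in parent, 3.25 to 3.53 FPKM in NC-1 and 0.649 to 0.775 FPKM in miR-4711-5p, and its part in the MUC2 result was not tested. CDH5 made up most of this sum. PECAM1 was also highest in NC-1, at 0.188 and 0.148 FPKM, whereas VWF was higher in parent (0.279 and 0.319 FPKM) than in NC-1 (0.176 and 0.203 FPKM), and KDR was listed at 0 in all libraries but 1.

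Among genes that equip cells for mucin secretion, SPDEF, ERN2 and AGR2 were lower after miR-4711-5p than in both control groups. Of 18 such genes listed, 12 were tested, of which 7 were lower, 1 was higher and 4 were not called against parent, beside 24.7% lower and 18.7% higher among all genes, with a median log2 difference of -0.48 against -0.01 over all genes. Against NC-1 the counts were 6 lower, 1 higher and 5 not called, beside 21.2% lower and 18.4% higher among all genes, with a median of -0.61 against 0.00. Both comparisons share the miR-4711-5p libraries. This list, like the other related lists, was chosen with earlier results of these data known, so the counts describe it and do not test it. With libraries rescaled to equal totals the counts were 6 lower and 1 higher against parent, and 6 lower and 2 higher against NC-1. SPDEF, a transcription factor of goblet cell differentiation, was at 14.4 and 13.9 FPKM in parent, 14.2 and 16.5 FPKM in NC-1 and 3.88 and 4.36 FPKM in miR-4711-5p. Its mean after miR-4711-5p was 0.292 of parent (log2 difference -1.56, limma adjusted p = 1.88e-05) and 0.268 of NC-1 (-1.68, limma adjusted p = 1.65e-05). ERN2, the stress sensor of mucus-producing epithelia, was at 17.6 and 17.3 FPKM in parent, 19.0 and 19.8 FPKM in NC-1 and 7.27 and 6.83 FPKM in miR-4711-5p, with log2 differences from parent and NC-1 of -1.20 and -1.34 (limma, adjusted p = 1.06e-05 and 8.56e-06). AGR2, a disulfide isomerase needed for mucin folding, was at 245 and 281 FPKM in parent, 284 and 296 FPKM in NC-1 and 154 and 173 FPKM in miR-4711-5p (-0.68 against parent, limma adjusted p = 0.000606). In all of these genes both miR-4711-5p libraries lay below every control library, as they did in 26.3% of all genes tested. These genes were named because they were called in both comparisons, so this adds no separate support.

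The trefoil peptide TFF1, which is secreted together with mucins, fell by 0.56 on the log2 scale against parent (limma, adjusted p = 0.0421) and by 0.85 against NC-1 (limma, adjusted p = 0.00887), and was no longer called against parent with equal totals (limma, adjusted p = 0.0861). The lectin-like gene ZG16B went the other way, from 14.7 to 19.7 FPKM in the controls to 23.1 and 25.0 FPKM after miR-4711-5p (0.60 against parent, limma adjusted p = 0.000913). CREB3L1, a transcription factor of the secretory pathway, was the sixth gene called in the same direction in both comparisons, at 1.56 and 1.51 FPKM after miR-4711-5p and at 2.56 to 3.91 FPKM in the controls. FOXA2 was lower than parent after miR-4711-5p (-0.46, limma adjusted p = 0.00177) and in NC-1 (-0.37, limma adjusted p = 0.009), and miR-4711-5p and NC-1 differed by -0.09 (limma, adjusted p = 0.356).

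**Figure D5:**
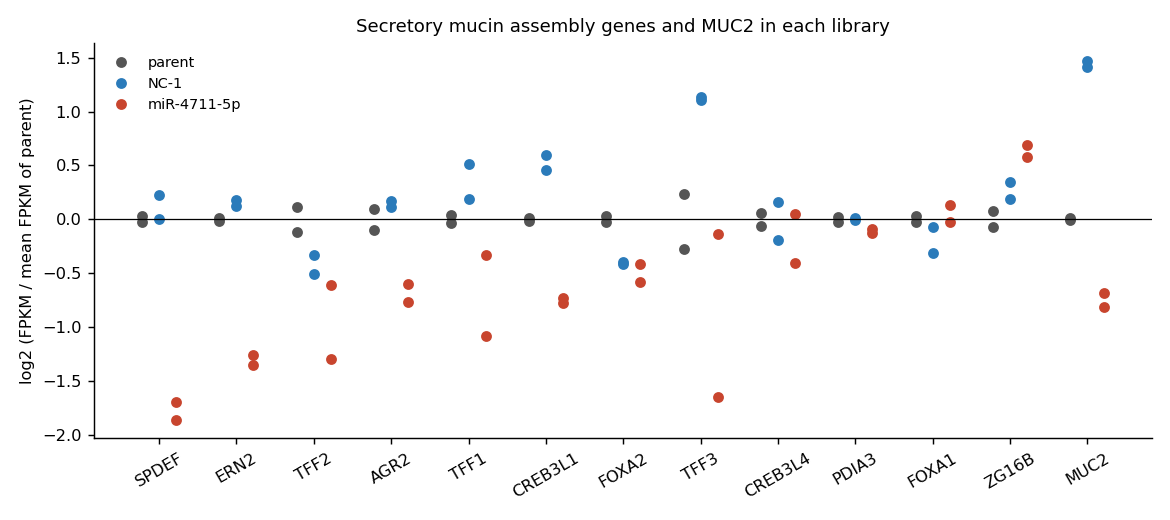
Log2 ratio of FPKM to the parent mean for the 12 tested genes of mucin secretion and for MUC2, with 1 point per library. SPDEF is the lowest relative to parent in both miR-4711-5p libraries, ZG16B is higher, and MUC2 and TFF3 are above parent in both NC-1 libraries.

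The enzymes that start O-glycosylation, the GALNT family, moved in both directions. Of 19 listed, 12 were tested, of which 5 were higher, 4 lower and 3 not called against parent, and 3 were higher, 3 lower and 6 not called against NC-1. Among all genes 43.4% were called against parent and 39.6% against NC-1. GALNT12 was at 26.7 and 28.5 FPKM in parent, 27.5 and 27.4 FPKM in NC-1 and 17.2 and 15.8 FPKM in miR-4711-5p, a log2 difference of -0.71 against parent (limma, adjusted p = 0.000133). GALNT11 (-0.43) and GALNT5 (-0.38) were also called lower against both controls, and GALNT6 (0.45) and GALNT14 (0.22) higher. Of 16 enzymes that extend or cap the sugars, 12 were tested, with 3 lower, 1 higher and 8 not called against parent. Against NC-1, 7 were lower and 5 not called. Among all genes 24.7% and 21.2% were called lower in these comparisons, and 18.7% and 18.4% higher. ST6GALNAC2, a sialyltransferase that caps the first sugar, was at 21.9 to 23.2 FPKM in the controls and at 13.6 and 14.7 FPKM after miR-4711-5p, a log2 difference of -0.61 against parent (limma, adjusted p = 0.000183). The branching enzyme GCNT3 (-0.37) and the extending enzyme B3GNT3 (-0.24) were called lower in both comparisons as well, but with equal totals both lost the call against parent (limma, adjusted p = 0.0741 and 0.0962). With equal totals the counts against parent were 7 higher and 3 lower for the GALNT list and 2 higher and 1 lower for the extension and capping list. Against NC-1 they were 4 higher and 3 lower for the GALNT list and 0 higher and 5 lower for the extension and capping list.

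The binding partners and sheddases of membrane mucins numbered 15, all tested, of which 5 were lower, 3 higher and 7 not called against parent, and 7 lower, 2 higher and 6 not called against NC-1. Among all genes 24.7% were lower and 18.7% higher against parent, and 21.2% lower and 18.4% higher against NC-1. With equal totals 5 were lower and 5 higher against parent. MSLN, the mesothelin that binds MUC16, was at 12.4 and 10.2 FPKM in parent, 8.28 and 8.01 FPKM in NC-1 and 3.68 and 3.76 FPKM in miR-4711-5p. Its log2 difference was -1.38 against parent (limma, adjusted p = 4.43e-05), -0.95 against NC-1 (limma, adjusted p = 0.000285) and -0.42 between NC-1 and parent (limma, adjusted p = 0.0159). MET, the receptor that MUC20 can bind, was at 115 and 117 FPKM in parent, 115 and 111 FPKM in NC-1 and 55.1 and 55.0 FPKM in miR-4711-5p (-1.06 against parent, limma adjusted p = 5.6e-06). Both partners were called lower after miR-4711-5p, while MUC20 was not called, nor was MUC16 in the fit with the lower filter.

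The galectin LGALS3, a ligand of MUC1 sugars, was at 147 to 163 FPKM in the controls and at 152 and 159 FPKM after miR-4711-5p, with a log2 difference of -0.06 against parent (95% interval -0.18 to 0.06, limma adjusted p = 0.392). ERBB2, the partner of MUC4, was at 18.6 to 21.0 FPKM in the controls and at 18.6 and 19.8 FPKM after miR-4711-5p (-0.08, 95% interval -0.21 to 0.06, limma adjusted p = 0.32). The groups overlapped for both genes, and with equal totals their differences from parent turned to 0.08 and 0.06, again not called (limma, adjusted p = 0.205 and 0.405). The galectin LGALS1 (-0.68, limma adjusted p = 6.01e-05) and the kinase SRC (-0.31, limma adjusted p = 0.00304) were lower than parent and were also called lower against NC-1.

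Between the control groups, 3 of the 4 tested other mucins were higher in NC-1 than in parent, beside a background of 12.1% of genes called higher and 15.1% called lower. The GALNT list had 5 higher and 7 not called, the extension and capping list 3 higher and 1 lower, the secretion list 3 higher and 1 lower, and the partner list 5 higher and 5 lower, which became 6 higher and 1 lower with equal totals. MUC2 at 2.72 times and CREB3L1 at 1.44 times the parent mean thus moved one way with NC-1 and the other way with miR-4711-5p.

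The genes whose profile over the 6 libraries was most like that of a mucin were ranked by the Euclidean distance between centred log2(FPKM + 1) values, which is a description. For MUC1 they were LPAR5 (distance 0.149), BCAM (0.156) and ITGB2 (0.159), and 449 of 12040 genes lay within 0.5. For MUC13 they were GPNMB (0.11), GRAMD1A (0.188) and CDC42EP1 (0.217), with 298 genes within 0.5. GPNMB had group means of 0.729, 1.02 and 2.19 FPKM in parent, NC-1 and miR-4711-5p. MUC4 was nearest to TMEM173 (0.0591), CCNDBP1 (0.0745) and CDH11 (0.0796), but 5085 genes lay within 0.5 of it and a flat profile lay at 0.457. MUC20 was nearest to FAM81A (0.199), DNASE1 (0.213) and RAET1L (0.214), with 2164 genes within 0.5 and a flat profile at 0.499.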

How the data were processed

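RNA was sequenced from 6 BxPC-3 libraries made with a strand-specific mRNA kit and read in single-end mode at 75 bases. According to the submitters' processing notes, reads were processed on hg19 with TopHat2 2.1.1, Bowtie2 2.3.5.1, SAMtools 1.2, Cufflinks 2.2.1 and Cuffdiff. The study's methods name other versions of TopHat, Bowtie2 and SAMtools, and Cuffnorm for the FPKM. The deposited values are FPKM, in which the authors scaled the reads of each symbol by transcript length and a size factor for each library. The annotation and the strand setting of the counting are not given in the sources used here. Reads were not recovered, so the number of reads is unknown. The relative size factor is the most common ratio, to 3 digits, of values under 0.1 FPKM, which 29.0% to 36.2% of 854 to 976 genes shared. The precision of low genes is limited accordingly.

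Genes that averaged 1 FPKM or more were tested as log2(FPKM + 1) in limma 3.58.1 (R 4.3.3) with a variance trend, the 3 groups in 1 fit (3 residual and 4.15 prior degrees of freedom), two-sided, with Benjamini-Hochberg adjustment at 0.05. In simulated data for miR-4711-5p against parent, over 12040 genes, 98.9% of log2 changes of 0.8 and 78.6% of 0.4 were recovered, with 5.74% false calls. The simulation changed 200 genes, all at higher levels than MUC13, whereas 43.4% of genes were called in the data. Its rates therefore need not hold for the mucin calls, least of all for MUC13. Python 3.11.15, numpy 2.4.6, pandas 2.3.3 and matplotlib 3.10.9 were used for the rest. Gene models were GENCODE v44 lifted to GRCh37, the build of hg19. The members and the lists (other mucins, O-glycan initiation, O-glycan extension and capping, secretion, partners and sheddases, cell type markers) were chosen with earlier results of these data known. Of each related list, up to 5 genes called with the same sign in both comparisons were named by size, plus MSLN, LGALS3, ERBB2 and MET, and the 3 nearest profiles per tested mucin. MUCL1, CREB3L1, FOXA2, TFF3 and the single cell type markers were named after their values were seen. The alternatives were other pseudocounts, filters, scalings and fits, a ratio of at least 1.5 and leaving out each library. Scalings to equal totals and to tested genes were added after seeing the data. Same-numbered libraries were not treated as paired.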

Additional observations from a re-analysis of the deposited data

How the results depend on the processing

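The count of mucins called against parent was 3, and 2 to 3 under the 17 alternatives. MUC1 and MUC4 stayed called lower and MUC13 higher in all 16 alternative fits, with log2 differences of -1.01 to -0.83, -0.46 to -0.30 and 0.81 to 1.65. The rescaling by median ratios over genes above 0 in every library could change little. The deposited values were already level on that measure, with factors of 1.006 to 1.007, so this fit adds little to the count. Against NC-1, the count of 3 became 1 to 4 when 1 library was left out, and 1 without the second miR-4711-5p library, where MUC4 (-0.27, limma adjusted p = 0.0769) and MUC13 (0.58, 0.0651) were lost; over all alternatives the adjusted p ran up to 0.0217 for MUC1. Between NC-1 and parent the call of MUC1 gave a count of 1, which became 0 with a filter at 0.1 FPKM, no filter, a fit of these 2 groups alone, no variance trend, equal totals, size factors from tested genes and a required ratio of 1.5, and ran from 0 to 1 with 1 library left out; the log2 difference ran from -0.46 to -0.16 and the adjusted p from 0.0161 to 0.159. The cause was not tested. For MUC20 the sign turned against parent with equal totals (0.01), against NC-1 without the second NC-1 library (0.12) and between NC-1 and parent without that library (-0.23, with 0.40 as the highest value when 1 library was left out), and against NC-1 it was called without the first NC-1 library (-0.51).

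The replicate numbers did not pair the libraries, since deviations of same-numbered libraries correlated at 0.061, 0.00301 and -0.00892. With the replicate block the counts of mucins called were 3, 3 and 1, the same as without it. Scaling to equal totals moved the median log2 difference against parent to 0.11 and the share of calls that were higher from 43.1% to 69.3% (against NC-1 from 46.5% to 58.4%, and for NC-1 against parent from 44.4% to 69.9%). FPKM without read counts, 2 libraries per group and the unknown handling of reads with several matches limit what can be said of MUC5B, MUC5AC, MUC16 and MUC20.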
